A study of Homo sapiens with 6 samples.

Results

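The C/EBP family was followed in MDA-MB-453 cells, an established androgen receptor-positive human breast cancer line with luminal features, after exposure to 25(OH)D, the circulating precursor of the vitamin D hormone. The genes were taken by name from the deposited table of read counts. The names CEBPA, CEBPB, CEBPD, CEBPG and CEBPZ gave 5 genes of the 33451 in the table, and the expression of CEBPE was not analysed here. The control group (CG) held 3 libraries of cells given the alcohol solvent alone, and the experiment group (EG) held 3 libraries of cells given 100 nM 25(OH)D. Both groups were the same unmodified line in the same serum-containing medium, with RNA taken at day 5. All 6 libraries came from 1 line and 1 time, and the study's methods call the replicates biological without saying how the cultures were kept apart.

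C/EBP proteins are transcription factors of the basic leucine zipper (bZIP) class. They bind DNA as dimers, with themselves, with each other or with other bZIP proteins, at palindromic sites built from the letters TTGCGCAA. C/EBPα is known for arresting proliferation and driving differentiation of liver, fat and myeloid cells. C/EBPβ is required for mammary ductal and alveolar development and exists as long activating and short inhibitory proteins made from the same mRNA, which read counts per gene do not separate. C/EBPδ is an early response gene of inflammation and of mammary involution. C/EBPγ lacks a strong activation domain and pairs with the others and with ATF4. CEBPZ carries the family's name for its binding to a CCAAT box in a heat shock promoter, but it is not a bZIP protein and belongs to the factors that assemble the large ribosomal subunit.

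The libraries held between 33268860 and 40928176 counts, and 3 counts corresponded to between 0.0720 and 0.0921 CPM, the count scaled to the size of its library. The share of mitochondrial counts was between 7.85% and 7.99% in CG and between 8.89% and 9.24% in EG. All 12 luminal epithelial markers had at least 10 counts in every library, with summed levels of 1248 to 1290 RPKM (the count scaled to gene length and library size) in CG and 1253 to 1279 RPKM in EG. Of the other cell types, at least 10 counts in every library were found for 1 of 6 basal epithelial markers (MYH11), 1 of 6 fibroblast markers (COL1A1), 1 of 8 myeloid markers (CD68) and 0 of 5 adipocyte markers.

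All 5 genes passed the low-count filter, and they did not share a direction in the edgeR quasi-likelihood test with Benjamini-Hochberg adjustment over 18183 genes. CEBPB and CEBPD were higher in EG, CEBPA and CEBPG were lower, and CEBPZ did not pass. That is 2 of 5 higher, where 17.3% of all tested genes were called higher, and 2 of 5 lower, where 16.5% were called lower. The CPM of the groups did not overlap for 2 of the 5, CEBPD and CEBPG, where 45.7% of all tested genes did not overlap. Past the study's own limits, an absolute log2 fold change over 1 with an unadjusted p under 0.05, lay only CEBPD among the 5, against 6.65% of all tested genes. CEBPD had 6 counts in CG 3, under the filter's minimum of 10, and passed with the EG libraries, where it was high. Family counts that include CEBPD are therefore not independent of the filter. The median log2 fold change was -0.013 over the 5 genes and -0.011 over all genes tested. In these bulk libraries, fewer cells expressing a gene and less of its RNA per cell cannot be told apart.

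**Figure D1:**
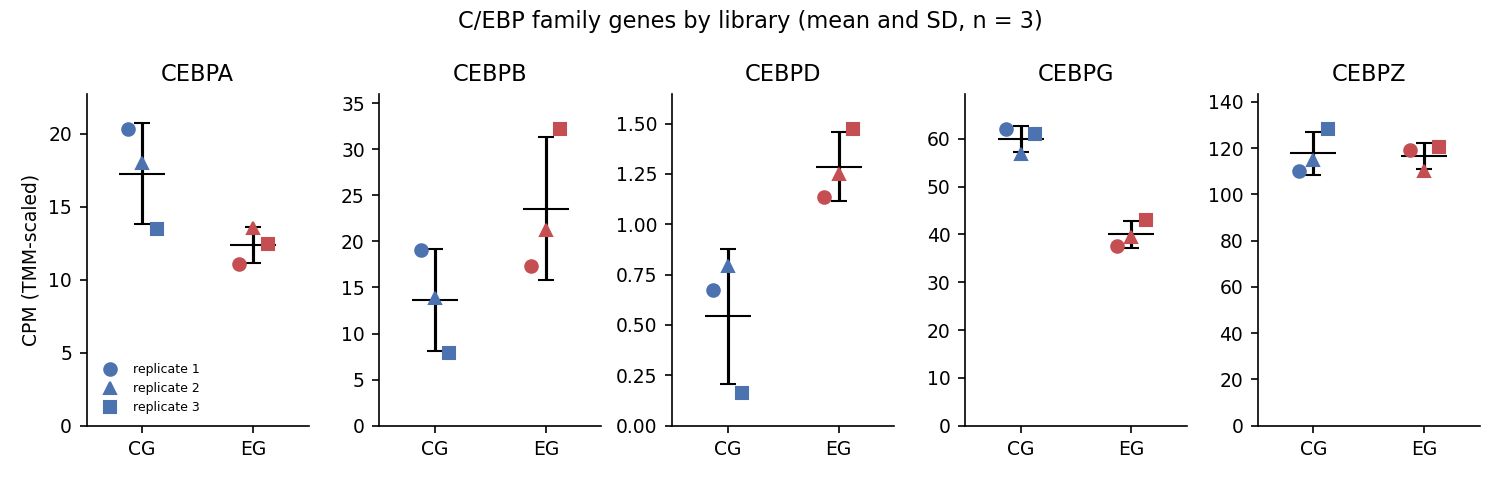
CPM scaled by TMM factors (vertical axis, linear from 0) for each of the 5 genes in CG and EG, with 1 symbol for each library and bars for the mean and SD of 3. The CEBPG groups are far apart, whereas the CEBPA groups meet at 13.5 CPM and the CEBPB groups overlap between 17.3 and 19.1 CPM.

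CEBPA was lower in EG. This intronless gene lies on the minus strand at chr19:33299934-33302564 (GRCh38). It had 846, 682 and 496 counts in CG and 389, 520 and 406 counts in EG. In CPM the CG libraries stood at 20.3, 18.0 and 13.5 and the EG libraries at 11.1, 13.5 and 12.5. The groups met at their edges, since CG 3 (13.47 CPM) lay just below EG 2 (13.52 CPM). The log2 fold change was -0.49 (SE 0.13, 95% interval -0.76 to -0.21), a 0.714-fold level in EG, with an adjusted p of 0.0096 (edgeR). The call was lost without CG 1 (log2 fold change -0.34, adjusted p 0.053 by edgeR) and without EG 1 (-0.41, adjusted p 0.054 by edgeR).

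CEBPB was higher in EG on average, with a wide spread in both groups. The intronless gene lies on the plus strand at chr20:50190734-50192689. It had 795, 526 and 292 counts in CG and 608, 816 and 1049 counts in EG, or 19.1, 13.9 and 7.93 CPM against 17.3, 21.2 and 32.2 CPM. CG 1 was above EG 1, and the highest library, EG 3, stood far above the other two of its group. The log2 fold change was 0.78 (SE 0.25, 95% interval 0.24 to 1.32), a 1.72-fold level, with an adjusted p of 0.026 (edgeR). The call depended on single libraries and on the test. Without CG 3 the log2 fold change was 0.51 and without EG 3 it was 0.50 (adjusted p 0.064 and 0.11 by edgeR), without CG 2 it was 0.80 (adjusted p 0.072 by edgeR), and DESeq2 gave an adjusted p of 0.18. Without CG 1 it was 1.11 (adjusted p 0.0019 by edgeR).

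CEBPD was the scarcest of the genes and was higher in EG. The intronless gene lies on the minus strand at chr8:47736909-47739086. It had 28, 30 and 6 counts in CG and 40, 48 and 48 counts in EG, or 0.673, 0.793 and 0.163 CPM against 1.14, 1.25 and 1.47 CPM. All EG libraries were above all CG libraries, and CG 3 was far below the others of its group. The log2 fold change was 1.23 (SE 0.42, 95% interval 0.33 to 2.13), a 2.34-fold level, with an adjusted p of 0.036 (edgeR). Without CG 3 the log2 fold change was 0.82 with an adjusted p of 0.078 (edgeR). The call was also lost when any 1 of the EG libraries was left out, with log2 fold changes between 1.13 and 1.31.

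CEBPG, the partner without a strong activation domain, fell with less spread than CEBPA, CEBPB and CEBPD showed. The gene lies on the plus strand at chr19:33373330-33382686, on the same chromosome as CEBPA but the opposite strand, and its longest annotated transcript has 2 exons. It had 2582, 2146 and 2245 counts in CG and 1318, 1519 and 1399 counts in EG, or 62.0, 56.7 and 61.0 CPM against 37.5, 39.5 and 42.9 CPM. Every EG library lay well below every CG library. The log2 fold change was -0.58 (SE 0.06, 95% interval -0.72 to -0.45), a 0.667-fold level, with an adjusted p of 4.59e-06 (edgeR). It was called lower in 16 of 16 alternatives, with log2 fold changes between -0.63 and -0.54.

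Its promoter was read because CEBPG and genes with composite C/EBP-ATF elements moved the same way. Such elements join the first letters of an ATF site to the second part of a C/EBP site, were searched as TGATGNAA on both strands, and are bound by ATF4 with a C/EBP partner. RefSeq sequences (GRCh38.p14) gave 2 windows for CEBPG, each from 250 bases before to 50 bases after a start, and 1 match, 42 bases before the downstream of the 2 starts. It is shown first below with the match in capitals (chr19:33374051-33374098, plus strand), followed by the stretch before the upstream start (chr19:33373599-33373708, plus strand), where the capitals mark 2 CCAAT boxes on the reverse strand.
CEBPG composite match: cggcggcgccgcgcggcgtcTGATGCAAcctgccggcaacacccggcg
CEBPG CCAAT boxes: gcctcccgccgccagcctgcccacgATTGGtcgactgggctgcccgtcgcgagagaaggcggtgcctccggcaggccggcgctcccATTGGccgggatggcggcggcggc

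Over 35116 RefSeq promoter windows, 3.62% held the composite letters and 34.6% held CCAAT on either strand. The C/EBP letters TTGCNNAA were in 10.5% of all windows and in none of the family windows, and their strict form TTGCGCAA was in 0.151% of all windows. CCAAT was found in the windows of CEBPG and CEBPB. Windows were read for 5 of the 6 names, CEBPE among them. Listed genes on chromosome 8, where CEBPD lies, were left out of this reading. The vitamin D response element named DR3 was in 0.074% of all windows and in no window read for the family. A match describes letters in these windows and does not show that a factor was bound.

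CEBPZ did not pass the test. The gene lies on the minus strand at chr2:37201612-37231713, and its longest transcript has 16 exons. It had 4575, 4351 and 4719 counts in CG and 4194, 4231 and 3928 counts in EG, or 110, 115 and 128 CPM against 119, 110 and 121 CPM. The groups overlapped throughout. The log2 fold change was -0.013 (SE 0.058, 95% interval -0.14 to 0.11) with an adjusted p of 0.89 (edgeR).

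**Figure D2:**
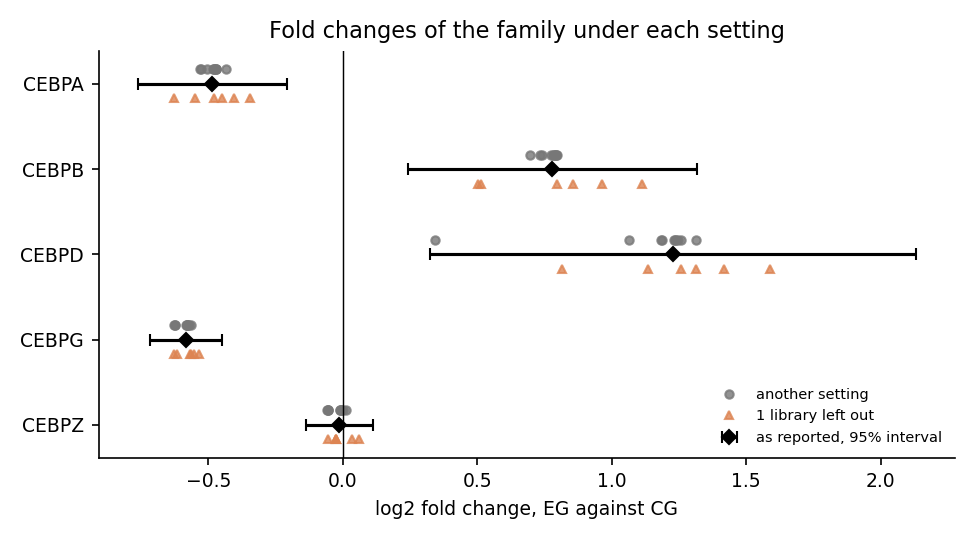
Log2 fold change of EG against CG (horizontal axis) for each gene, with the reported value and its 95% interval as a diamond, other settings as circles and fits with 1 library left out as triangles. CEBPG stays between -0.63 and -0.54, CEBPB spreads from 0.50 to 1.11, and the lowest CEBPD point (0.34) is the fit to log2(RPKM + 1), in which the added 1 exceeds the gene's own level.

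Replicates of CEBPA, CEBPB and CEBPD varied more than most genes of like level. The pooled within-group SD of log2 CPM was 0.24 for CEBPA, 0.56 for CEBPB and 0.77 for CEBPD. It exceeded that of 97.6%, 99.5% and 97.3%, respectively, of the tested genes within 0.5 log2 units of mean CPM. CEBPG (0.08) exceeded 71.1% and CEBPZ (0.10) exceeded 89.2% of such genes. The 3 variable genes are intronless and rich in G and C (65.9%, 66.2% and 70.0% of bases), compared with 43.9% for CEBPG and 39.6% for CEBPZ. The 1481 genes richest in G and C (over 61.6% of bases) deviated from their mean by medians between -0.05 and 0.04 on the log2 scale in the libraries, and the part of GC content in these spreads was not tested.

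Per length, CEBPZ had the highest level and CEBPD the lowest in both groups. In CG the order was CEBPZ (32.9 ± 2.48 RPKM, SD, n = 3), CEBPG (13.8 ± 0.627), CEBPB (7.09 ± 2.92), CEBPA (6.67 ± 1.37) and CEBPD (0.253 ± 0.157). In EG the order was CEBPZ (31.6 ± 1.35 RPKM), CEBPB (11.9 ± 3.84), CEBPG (8.92 ± 0.598), CEBPA (4.62 ± 0.486) and CEBPD (0.581 ± 0.0757). CEBPA and CEBPB overlapped across the CG libraries, and CEBPB and CEBPG overlapped across the EG libraries. Within each EG library CEBPB stood above CEBPG, while the order of CEBPA and CEBPB was not the same in all CG libraries.

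The summed level of the 4 bZIP genes was 27.8 ± 4.56 RPKM in CG and 26.0 ± 4.69 RPKM in EG (SD, n = 3), which overlapped (exact permutation test, two-sided, p = 0.7). The difference of -1.81 RPKM had no stable direction, since it was 0.502 without CG 1, 0.351 without EG 1, -4.06 without CG 3 and -4.30 without EG 3. In CPM, without scaling by length, the sum differed by -14.19. The makeup of that sum differed between the groups in these libraries, though no test of a share passed. CEBPB took 30.7%, 26.2% and 17.6% of it in the CG libraries and 40.1%, 42.5% and 52.1% in the EG libraries. CEBPG took 44.1%, 47.3% and 59.9% in CG and 38.5%, 35.1% and 30.8% in EG, and CEBPA took 24.3%, 25.2% and 22.2% against 19.1%, 20.1% and 15.0%. CEBPD made up 0.324% to 1.34% in CG and 2.14% to 2.37% in EG. None of the 4 shares overlapped between groups, and each had a two-sided exact permutation p of 0.1, the smallest that 3 against 3 libraries can give (adjusted p 0.1 over 4 shares). The shares are parts of 1 sum, so they are not independent results. In CPM, 45.7% of all tested genes did not overlap between the groups.

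**Figure D3:**
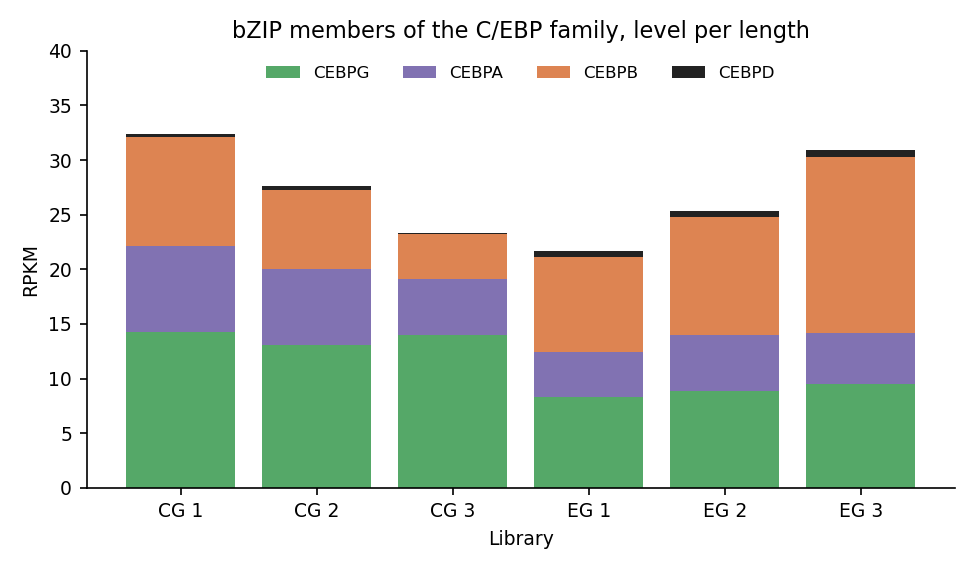
Stacked RPKM (vertical axis) of the 4 bZIP genes in each library (horizontal axis). The CEBPB segment is the largest in every EG library and CEBPG the largest in every CG library, while the totals of the groups overlap between 23.3 and 31.0 RPKM.

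In CG all libraries had more CEBPG than CEBPB per length, with log2 ratios of CEBPB to CEBPG of -0.53, -0.86 and -1.77. In EG all had more CEBPB, with log2 ratios of 0.06, 0.28 and 0.76. The log2 ratio of CEBPA to CEBPB averaged -0.02 in CG and -1.32 in EG, again with no overlap. Of the 6 pairs, 4 did not overlap, each with an exact permutation p of 0.1 (adjusted p 0.15 over 6 pairs). The ratios are built from the same 4 genes, so they are not independent results. Among single genes 45.7% did not overlap in CPM, and ratios of other gene pairs were not computed. CEBPA to CEBPG was -1.07 ± 0.32 in CG and -0.95 ± 0.13 in EG (SD, n = 3; exact permutation p = 0.8), with a difference of 0.12 that was -0.066 without CG 3, and CEBPB to CEBPD overlapped as well (exact permutation p = 0.2).

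Transcripts on the opposite strand share positions with 3 of the genes. The kit preserved strand, but the strand setting used in counting is not given in the sources used here, so reads of the pairs cannot be told apart. CEBPA shares 659 of its 2631 exon bases with CTD-2540B15.11, which was lower in EG as well (log2 fold change -0.66, adjusted p 0.0096 by edgeR), and 482 bases with CTD-2540B15.7 (-0.47, adjusted p 0.18 by edgeR). The latter was at -0.23 without EG 1 and was called lower without EG 3 (-0.80, adjusted p 0.022 by edgeR). Both CTD-2540B15.11 and CTD-2540B15.7 lie wholly within the exon of CEBPA. CEBPB shares 231 bases with CEBPB-AS1, which had 183, 125 and 56 counts in CG and 77, 132 and 237 in EG (log2 fold change 0.47, adjusted p 0.39 by edgeR). Like CEBPB, this antisense transcript was lowest in CG 3 among the controls and highest in EG 3, with 12.7 to 23.8 counts per 100 counts of CEBPB. CEBPZ shares 351 bases with CEBPZOS (-0.015), 408 with RP11-423P10.2 (-0.037) and 83 with NDUFAF7 (0.0016), none of which passed the test.

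Most other genes within 50000 bases of the family did not pass the test, as was so for 12041 of all 18183 tested genes. CEBPA-AS1, which starts 292 bases from CEBPA, had a log2 fold change of -0.16 (adjusted p 0.54, edgeR), and CTD-2540B15.9 one of -0.08. PEPD, 4263 bases from CEBPG, had -0.20 (adjusted p 0.14, edgeR), with -0.075 without CG 1 and a call only without CG 3 (-0.27, adjusted p 0.042, edgeR), and SPIDR, next to CEBPD, had -0.04. PRKDC, the DNA-dependent protein kinase near CEBPD, was lower (-0.19, adjusted p 5.4e-04, edgeR). EIF2AK2 near CEBPZ was higher (0.36), as was the readthrough TMEM189-UBE2V1 near CEBPB (0.31). The readthrough shares 74.9% of its exon bases with UBE2V1 and 25.1% with TMEM189 (-0.20, not passed). UBE2V1 had 2496, 2360 and 2571 counts in CG and 2803, 2950 and 2847 in EG, so the rise cannot be assigned to the readthrough. SULT6B1 (0.014) and PRKD3 (-0.48) near CEBPZ did not pass.

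Partner bZIP genes, with which C/EBP proteins can form dimers or share sites, moved in both directions. Of 16 listed, 15 were tested, 3 were higher (20%, near the 17.3% of all tested genes) and 6 lower (40%, against 16.5%), with a median log2 fold change of -0.12. The number lower was 4 with DESeq2 and 4 to 5 with any 1 library left out. The higher ones were the AP-1 genes FOS (1.91), JUN (0.73) and BATF (0.70). The lower ones included ATF4 (-0.75), the translationally controlled effector of the integrated stress response, its target DDIT3 (-0.81), which encodes the C/EBP homologous protein CHOP, and the circadian PAR-domain factor TEF (-0.43). The other 3 lower ones were ATF3 (-0.36), DBP (-0.44) and NFIL3 (-0.52). ATF4 had 16132, 14897 and 15804 counts in CG and 8740, 8934 and 7850 in EG (adjusted p 1.14e-08, edgeR). Per length it was the most abundant of these genes, at a mean of 163 RPKM in CG and 94.2 RPKM in EG. DDIT3 had 769, 789 and 722 counts against 451, 390 and 350 (adjusted p 1.42e-05, edgeR), and 28.0% of its exon bases are shared with MARS on the opposite strand, whose counts were also lower in each EG library. FOS had 36, 26 and 12 counts against 78, 90 and 84. For ATF4, DDIT3 and FOS every EG library lay on 1 side of every CG library.

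Genes that encode regulators of C/EBP proteins (kinases, ubiquitin ligases, cofactors and upstream signals) gave 5 higher (18.5%) and 7 lower (25.9%) of 27 tested, with a median log2 fold change of 0.026. Over all tested genes the shares were 17.3% and 16.5%, so the list as a whole stood near the background. RPS6KA1, a kinase that phosphorylates C/EBPβ, had 188, 167 and 147 counts in CG and 273, 352 and 341 in EG (log2 fold change 1.08, adjusted p 1.77e-05, edgeR). STAT3, which activates CEBPD transcription downstream of IL-6 type cytokines, was higher (0.35), and so was the shared cytokine receptor chain IL6ST (0.62, adjusted p 0.049, edgeR), with 44 to 59 counts in CG and 66 to 78 in EG. RFWD2 (COP1), the ligase that degrades C/EBPα together with Tribbles proteins, was higher (0.34), while TRIB2 was lower (-0.40) and TRIB1 did not pass (0.03). FBXW7, a ubiquitin ligase subunit that targets C/EBPα and C/EBPδ, was lower, with 4064, 3765 and 3792 counts in CG and 2403, 2655 and 2268 in EG (-0.54, adjusted p 4.01e-07, edgeR). The coactivators CREBBP (-0.24) and SMARCA4 (-0.19) were lower, and EP300 did not pass (0.10).

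Most of the genes listed for control through composite C/EBP-ATF elements were lower in EG. Of 20 listed, 19 were tested and 15 were lower (78.9%, against 16.5% of all tested genes), and the median of their log2 fold changes was -0.61. The number higher was 0 by edgeR, also at an unadjusted p under 0.05, and 0 by DESeq2. The list contains DDIT3 and ATF3, which are also counted among the partners. Those with the smallest p were SLC7A11 (-2.09), the cystine transporter subunit, STC2 (-1.82), a secreted glycoprotein, and PHGDH (-1.34), the entry enzyme of serine synthesis. SLC7A11 had 3101, 2752 and 2758 counts in CG and 632, 635 and 575 in EG (adjusted p 2.13e-12, edgeR), and 8.97% of its exon bases are shared with its antisense transcript. ASNS, asparagine synthetase, had 1253, 1224 and 1030 counts against 496, 530 and 383 (log2 fold change -1.19). CHAC1, a glutathione-degrading enzyme, had 287, 191 and 159 counts against 82, 82 and 52 (-1.42). The 4 that did not pass were SLC38A2 (-0.12), SLC7A5 (-0.09), DDIT4 (-0.10) and VLDLR (0.11). CEBPG itself, at -0.58, lay close to the median of this list, and a part of CEBPG in these changes was not tested.

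Of the 15 listed composite-site genes with a RefSeq window, 4 held the composite letters. The matches of ASNS, CHAC1 and ATF3 are shown with 20 bases on either side, so that they can be compared with that of CEBPG above. They lie 68 bases before a start of ASNS (chr7:97872449-97872496, minus strand), 209 before the start of CHAC1 (chr15:40953242-40953289, plus strand, match on the reverse strand) and 191 before a start of ATF3 (chr1:212565196-212565243, plus strand). The other windows of ASNS and ATF3, for other starts, held no composite letters.
ASNS: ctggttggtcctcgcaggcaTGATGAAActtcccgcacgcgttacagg
CHAC1: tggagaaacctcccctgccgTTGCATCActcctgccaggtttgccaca
ATF3: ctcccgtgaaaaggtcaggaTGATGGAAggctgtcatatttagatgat

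**Figure D4:**
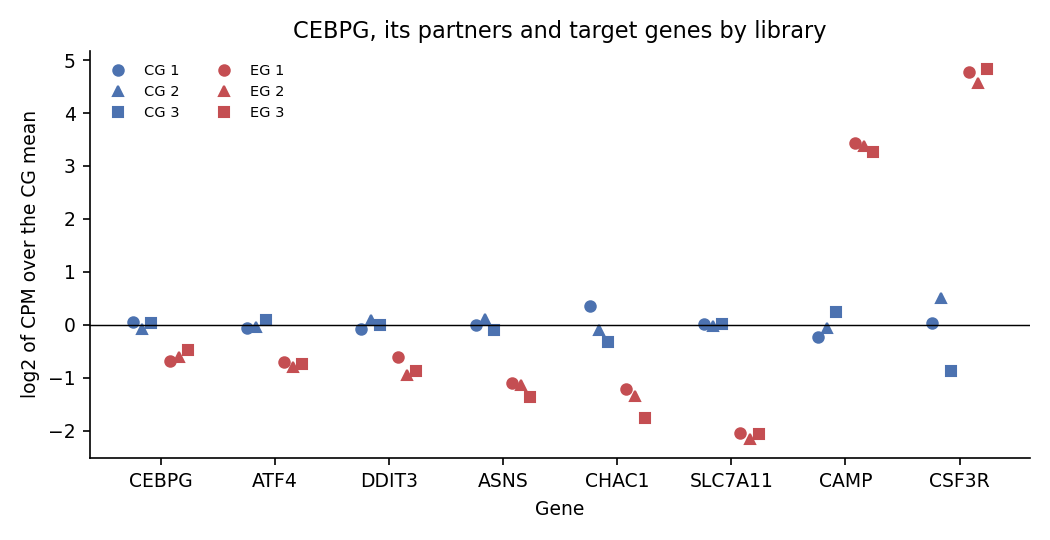
Log2 of CPM over the CG mean (vertical axis) for CEBPG, its partners ATF4 and DDIT3, and 5 genes of the target lists (horizontal axis), with 1 symbol for each library. The EG libraries lie below the CG libraries for the first 6 genes and above them for CAMP and CSF3R.

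The textbook C/EBP targets of liver, fat and inflammation were mostly too scarce to test. Of 17 acute phase and inflammation genes in the table, 4 passed the filter and 0 changed by edgeR, also at an unadjusted p under 0.05, or by DESeq2, and the highest count among the other 13 was 13. The smallest p was that of FGB, fibrinogen β, with 18, 11 and 10 counts in CG and 8, 2 and 6 in EG (log2 fold change -1.12, adjusted p 0.16, edgeR). FGB was under 10 counts in each EG library and passed the filter with the CG libraries, where it was higher. Of 4 tested liver and fat genes, 1 was higher (25%, against 17.3% of all tested genes), the stearoyl-CoA desaturase gene SCD (0.54), with 25347 to 30629 counts in CG and 34126 to 39866 in EG. ALB, TAT and INSR did not pass.

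Both myeloid C/EBP targets that passed the filter, CAMP and CSF3R, were higher in EG, where 17.3% of all tested genes were. CSF3R had 9 counts in CG 3, under the filter's minimum of 10, and passed with the EG libraries, where it was high. The count of genes called higher is therefore not independent of the filter. CAMP, which encodes the antimicrobial peptide cathelicidin and is a known direct target of the vitamin D receptor, had 70, 71 and 86 counts in CG and 750, 782 and 613 in EG. Its log2 fold change was 3.36 (SE 0.12), a 10.3-fold level (adjusted p 4.47e-11, edgeR). CSF3R, the G-CSF receptor gene and a C/EBPα target in granulocytes, had 19, 24 and 9 counts in CG and 430, 404 and 412 in EG. Its log2 fold change was 4.71 (SE 0.21), a 26.2-fold level (adjusted p 3.95e-10, edgeR). The other 7 of 9 genes in the table, among them ELANE, LYZ and SPI1, were under the filter with at most 18 counts. Among the myeloid markers the summed level was 1.89 to 2.65 RPKM in CG and 6.01 to 8.69 RPKM in EG. This sum was mostly CD68, a lysosomal gene that many cell types express, which had 167, 211 and 192 counts in CG and 543, 498 and 628 in EG. PTPRC, the pan-leukocyte marker, had at most 6 counts and ITGAM at most 4 in any library, and both were at 0 in CG 3.

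CAMP and CSF3R are shown for the letters they share with the family's sites. The CAMP window held a composite match 50 bases before the start (chr3:48223425-48223472, plus strand, match on the reverse strand). A CSF3R window held a C/EBP match 206 bases before its start (chr1:36483493-36483540, minus strand). The other CSF3R window, for another start, held no C/EBP match.
CAMP composite: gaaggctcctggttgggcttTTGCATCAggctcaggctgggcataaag
CSF3R C/EBP: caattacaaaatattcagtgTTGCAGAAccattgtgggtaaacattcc

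Of 10 genes tied to C/EBPβ in the mammary gland, 3 passed the filter, with 2 called higher and 1 called lower, where 17.3% and 16.5% of all tested genes were so called. AREG, the EGFR ligand of ductal growth, had 162, 192 and 184 counts in CG and 2968, 2899 and 2475 in EG (log2 fold change 4.08, adjusted p 3.27e-13, edgeR). PRLR, the prolactin receptor gene, was higher (1.42), with 1538 to 1800 counts in CG and 3881 to 4569 in EG. XDH, xanthine dehydrogenase, a component of milk fat globules, was lower, with 175, 148 and 164 counts in CG and 10, 14 and 18 in EG (-3.39, adjusted p 7.9e-08, edgeR). PGR was under the filter.

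**Figure D5:**
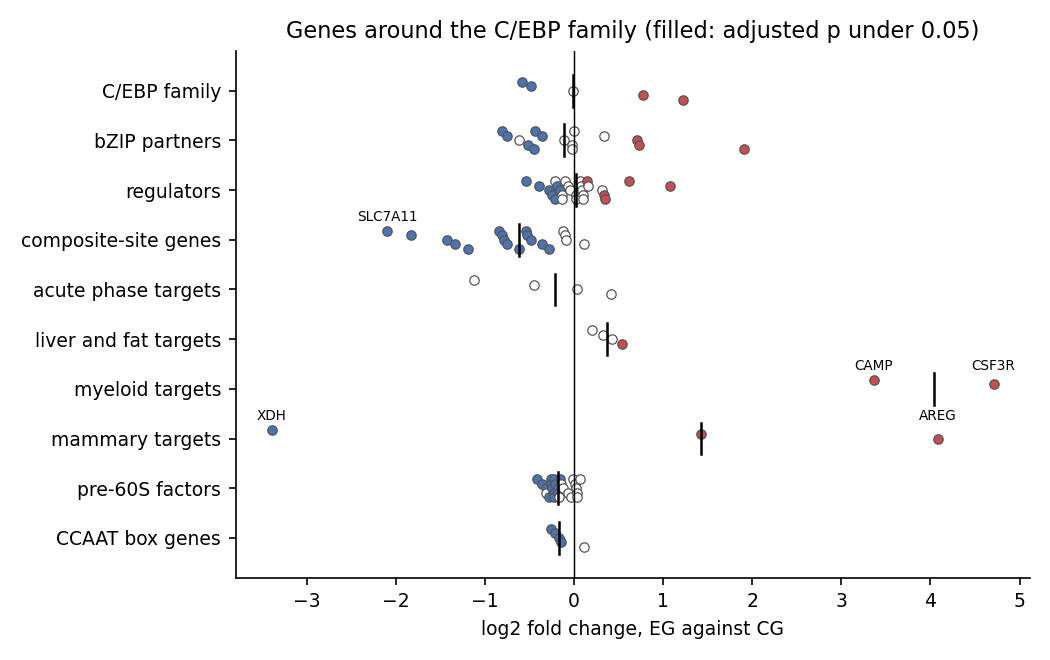
Log2 fold change of EG against CG (horizontal axis) for every tested gene of each list, filled where the adjusted p was under 0.05 (red higher, blue lower), with a vertical bar at the list's median. The composite-site genes other than VLDLR lie below 0, with a median of -0.61, whereas the C/EBP family stands on both sides.

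Around CEBPZ, genes of large-subunit ribosome assembly were more often lower than higher. Of 26 listed pre-60S factors 14 were lower (53.8%, against 16.5% of all tested genes), and 0 were higher by edgeR, also at an unadjusted p under 0.05, or by DESeq2. The median of their log2 fold changes was -0.18. The smallest p values among them belonged to GNL3 (-0.42), nucleostemin, RSL1D1 (-0.28) and RRP1 (-0.26). The yeast counterpart of CEBPZ works with those of NOC2L (-0.18) and NOC3L (-0.22), which were both lower, while CEBPZ was at -0.013. Of 5 genes listed around the CCAAT box (CCAAT box genes), 4 were lower (80%, against 16.5% of all tested genes). The number lower was 3 with DESeq2 or with any 1 library left out. The 4 were HSPA1A (-0.21), HSPA1B (-0.17), NFYA (-0.14) and NFYB (-0.25), and NFYC did not pass (0.11). HSPA1A and HSPA1B are near-identical copies whose reads can be split between them, so their separate values are uncertain. They are not independent members of that count.

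The genes with profiles most like each family gene were found from the root mean square distance between centred log2 CPM over the 6 libraries. CEBPG was nearest to RNF43 (distance 0.027, log2 fold change -0.54) and SPATA7 (0.035, -0.60), and CEBPZ to LAMTOR3 (0.021, -0.032) and LLPH (0.022, -0.016). CEBPA was nearest to SPRN (0.06, -0.42) and RP4-583P15.14 (0.07, -0.53). For CEBPB the nearest were CTD-2547G23.2 (0.09, 0.93) and CTD-3203P2.1 (0.14, 0.61), which had at most 21 counts in a library. For CEBPD they were ALDH1A3 (0.09, 1.36) and TMEM40 (0.18, 1.39), which had 2 counts each in CG 3, the library in which CEBPD had 6.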

How the data were processed

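mRNA of 6 libraries (3 CG, 3 EG) was sequenced. The authors deposited counts of reads per gene without normalization, and RPKM values, which equal count over gene length over library total (largest relative difference 2.23e-13). The submitters' processing notes name Trimmomatic 0.36, featureCounts of Subread 1.5.1, edgeR 3.12.1 and GRCh38. The aligner and the counting strand are not given in the sources used here. Groups were taken from sample titles, and library depth and precision are given with the results.

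Counts were tested in R 4.3.3 with edgeR 4.0.16 (TMM factors, filterByExpr with a minimum count of 10, quasi-likelihood test of EG against CG, Benjamini-Hochberg over 18183 genes, limit 0.05). DESeq2 1.42.0 and limma 3.58.1 on log2(RPKM + 1) and log2(RPKM + 0.1) were alternatives, beside other scalings, no filter, library sizes without mitochondrial genes, a replicate block, each library left out, and GC-corrected offsets, which were chosen after seeing the data. GC content was matched for 81.44% of tested genes. Sums, shares and ratios of RPKM were compared by exact permutation tests. On simulated data the test recovered 183 of 200 genes changed by 1 on the log2 scale, with 16 false calls among 17876 genes. No 2 libraries agreed within sampling noise.

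The family genes and the lists were chosen with earlier results of these data known. The text names the family, up to 3 genes a list and direction with the smallest p among those that passed (or the smallest p where none did), genes within 50000 bases, and the 2 nearest profiles. Other genes it names, such as ASNS, CHAC1, ATF3, TRIB2 and IL6ST, were chosen after their values were seen.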

Additional observations from a re-analysis of the deposited data

How the results depend on the processing

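Of 784 fold changes fitted under alternative settings, 738 kept their direction and their side of the limit, and the cause of the others was not tested. CEBPB lost its call with DESeq2 (log2 fold change 0.79, adjusted p 0.18), limma on log2(RPKM + 1) (0.70) and on log2(RPKM + 0.1) (0.78), and in the fit with the replicate block (0.80, adjusted p 0.051, edgeR), which changed no other call of a family gene. The block moved the calls over all genes from 3138 to 3057 higher and from 3004 to 2896 lower. Whether same-numbered libraries were handled together is not stated. Their deviations from the group means had correlations of -0.072, -0.012 and -0.046, and other pairings of the libraries were not compared. CEBPA lost it with limma (-0.43 with 1 added, adjusted p 0.054, and -0.50 with 0.1 added, adjusted p 0.050), and CEBPD with limma and 0.1 added (1.06). CEBPZ stood at 0.011 with GC-corrected offsets. The number of family genes called higher was 1 with DESeq2, with limma and 1 added and with the replicate block, and 0 with limma and 0.1 added; the number lower was 1 with either limma fit. Without the low-count filter 1 antisense transcript was called higher. In CPM, without scaling by length, the bZIP sum differed by -14.19 and the CEBPA share by -2.65 percentage points. Leaving out family genes under 10 counts in every library changed nothing, since none was.

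With 1 library left out, the log2 fold change ranged from -0.63 to -0.34 for CEBPA, 0.50 to 1.11 for CEBPB, 0.82 to 1.59 for CEBPD, -0.63 to -0.54 for CEBPG and -0.054 to 0.059 for CEBPZ, with 0 to 2 family genes higher and 1 to 2 lower, and 0 to 1 CCAAT box genes higher. Directions turned for genes near 0, with ranges of -0.32 to 0.040 for CEBPA-AS1, -0.18 to 0.060 for CTD-2540B15.9, -0.10 to 0.034 for SPIDR, -0.076 to 0.060 for CEBPZOS, -0.079 to 0.056 for RP11-423P10.2, -0.055 to 0.085 for SULT6B1 and -0.17 to 0.13 for NDUFAF7. CEBPB-AS1, reported at 0.47, ranged from -0.12, without EG 3, to 0.82. SULT6B1 also turned with upper-quartile factors (-0.027), library sizes alone (-0.030) and limma (-0.020 and -0.030), and NDUFAF7 with the same settings (-0.041, -0.041, -0.039 and -0.055) and the replicate block (-0.010). Other scalings moved the median of all genes by at most 0.0441 downwards. With 3 libraries a group, no exact permutation p could fall under 0.1, and CEBPD, at 6 to 48 counts, was limited by depth.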
